A study of Mus musculus with 8 samples.

Results

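The expression of 10 genes that mark successive steps of B-cell development was followed in leukocytes from arthritic mouse joints. The members are Vpreb1, Igll1, Dntt and Rag1, which act early, Vpreb3, Ebf1 and Ighm, which span much of the series of steps, and Ighd, Fcer2a and Cr2, which come late. They were chosen by name, and all 10 were present among the 28434 gene rows of both deposited tables of unique molecular identifier (UMI) counts, in which each UMI stands for 1 captured transcript. C57BL/6 mice were given 100 µL K/BxN serum, which carries arthritis-inducing antibodies, on days 0, 2 and 9 and received bone marrow monocytes from arthritic mice intravenously on day 12. In the Mono+MCTR3 group (4 mice) these monocytes had been incubated for 90 min with 1 nM MCTR3, a lipid mediator derived from docosahexaenoic acid. In the Mono group (4 mice) they had been incubated with vehicle. Mice were 10 weeks old, both groups were arthritic, and CD45+ cells were sorted from paw joints on day 22 for droplet single-cell RNA sequencing. No label separates transferred cells from cells of the host, and B-cells were neither transferred nor sorted for.

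B-cells form in the bone marrow, where a progenitor first joins the segments of its heavy-chain gene with the Rag recombinase while Dntt adds bases at the joints. The new heavy chain is tested with a surrogate light chain made of the Vpreb and Igll1 proteins, and cells that pass divide, join a light-chain gene and display IgM as immature B-cells. On leaving the marrow they gain IgD, CD23 and CD21, which mark the mature naive B-cell of blood and lymphoid organs. Ebf1 is a transcription factor needed to enter and hold the B-cell lineage, and it is also made by stromal and fat-lineage cells.

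Vpreb1 and Igll1, the genes of the surrogate light chain, lie beside each other on chromosome 16 (GRCm38, both on the minus strand, 4417 bases apart), Vpreb1 at chr16:16868403-16870843 and Igll1 at chr16:16860671-16863985. The UMIs of these genes occurred in the same cells, so the 250 bases before their RefSeq start sites are shown, together with those of Vpreb2 (chr16:17980428-17981273, plus strand), a near copy of Vpreb1. Capitals mark matches, on either strand, to CCCNNGGG, the core bound by EBF1, and to CAGGTG, an E-box of the kind bound by the E2A proteins. The sequences are RefSeq's (GRCm38.p6), written along the strand of the gene, for Vpreb1 chr16:16869256-16869505, for Vpreb2 chr16:17980315-17980564 and for Igll1 chr16:16863986-16864235.
Vpreb1: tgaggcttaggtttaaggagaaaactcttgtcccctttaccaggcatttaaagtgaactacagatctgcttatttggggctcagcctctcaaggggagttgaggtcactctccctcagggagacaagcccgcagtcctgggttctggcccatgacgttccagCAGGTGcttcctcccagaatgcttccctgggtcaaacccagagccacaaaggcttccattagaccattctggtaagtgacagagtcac
Vpreb2: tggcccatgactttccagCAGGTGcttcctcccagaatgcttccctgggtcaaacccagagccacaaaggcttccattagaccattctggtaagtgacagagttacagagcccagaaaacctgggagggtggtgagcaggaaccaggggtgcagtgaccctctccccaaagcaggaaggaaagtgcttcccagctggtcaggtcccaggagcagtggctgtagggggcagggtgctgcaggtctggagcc
Igll1: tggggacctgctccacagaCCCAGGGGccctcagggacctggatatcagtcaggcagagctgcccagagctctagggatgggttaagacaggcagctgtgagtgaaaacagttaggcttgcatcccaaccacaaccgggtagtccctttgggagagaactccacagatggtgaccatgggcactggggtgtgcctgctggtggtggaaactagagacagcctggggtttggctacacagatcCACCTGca
Vpreb1 held the E-box letters 88 bases before the start, Vpreb2 held them 232 bases before its start, and Igll1 held them 8 bases before its start, there on the opposite strand. In Vpreb1 and Vpreb2 these letters lie in the same stretch of matching bases, so 88 and 232 differ through the annotated starts. The gene spans above follow another annotation, in which Vpreb1 and Vpreb2 start at other bases than in RefSeq. Igll1 also held the EBF1 core letters, 231 bases before the start. These letters are common, since 11.8% of the 32851 RefSeq promoter windows of this length held CCCNNGGG and 17.2% held CAGGTG. A window was found for 8 of the 10 members, with none for Ighm and Ighd. Rag1, Cr2 and 1 of the Fcer2a windows also held CAGGTG. The transcripts of Vpreb1 and Vpreb2 were identical at 739 of 759 aligned bases (97.4%), so reads of these genes could be split or lost in counting and the Vpreb1 counts are uncertain for that reason.

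From 10538 barcodes, 10256 cells were kept, 5015 from Mono+MCTR3 and 5241 from Mono mice, after barcodes outside 250 to 3000 genes, under 500 UMIs or over 5% mitochondrial UMIs had been set aside. Each mouse contributed 758 to 1913 cells and 1731045 to 6009009 UMIs, and pairs of libraries shared 0 to 7 barcode sequences. B-cells were taken as the 1444 cells with at least 3 UMIs over Cd79a and Cd79b, the signalling chains of the B-cell receptor, and Ms4a1, which encodes CD20 (824 from Mono+MCTR3 and 620 from Mono mice). Outside that gate lay 8812 cells, which clustered mainly as neutrophil-like, T-cell-like and NK-like, with 2156 in an unnamed cluster led by the haemoglobin gene Hba-a2. The 14 cells with exactly 3 such UMIs included 10 with Ebf1 and 9 in the B-cell-like clusters, against 3 and 2 of the 52 cells with 2 such UMIs. Within the gate Pax5, a transcription factor of B-cell identity, was found in 26.0% of cells, against 0.170% outside. The neutrophil marker S100a8 was found in 95.2% of gate cells and 99.5% of other cells, so RNA of the most abundant cells was present in nearly every barcode. The summed CPM (counts per 1000000 UMIs of the same cells) of 8 erythroid genes in gate cells was 69383 in Mono+MCTR3 mouse 4, against 140 to 165 in the other Mono+MCTR3 mice and 52.3 to 167 in Mono mice. Over all cells the same genes reached 5501 to 6467 CPM in Mono+MCTR3 mice and 43.4 to 531 CPM in Mono mice. In Mono+MCTR3 mouse 4 nearly all of these UMIs lay in its 59 gate cells. In mice 1 to 3 of that group nearly all lay outside the gate. The separation over all cells thus came from different cells in different mice. The part of erythroid RNA in the group comparisons was not tested.

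Early genes were rare among the joint B-cells, and Vpreb1, Igll1 and Dntt came mostly from a few mice. Vpreb1 gave 270 UMIs in 22 gate cells, Igll1 294 UMIs in 18 cells, Dntt, the terminal transferase, 107 UMIs in 14 cells, and Rag1, a subunit of the recombinase, 36 UMIs in 27 cells. Most of these cells belonged to Mono+MCTR3 mice 1 and 2, which held 237 and 469 of the 1444 gate cells. For Rag1 these mice held 3 and 11 of the 27 cells, close to their share of gate cells. Vpreb1 stood at 235, 85.1, 39.6 and 0 CPM in the gate cells of Mono+MCTR3 mice 1 to 4, against 31.5, 0, 0 and 0 CPM in Mono mice 1 to 4. Igll1 stood at 271, 82.6, 46.1 and 0 CPM in Mono+MCTR3 mice, against 39.4, 0, 0 and 0 CPM in Mono mice. Both genes were thus present in the same 3 Mono+MCTR3 mice and the same Mono mouse, and the groups overlapped. The 0 of Mono+MCTR3 mouse 4 depends on the limit of 3000 genes, which removed 1 early gate barcode of that mouse. Without the limit both genes were found in at least 1.64% of the gate cells of each Mono+MCTR3 mouse. Vpreb1 was then found in 1.64 to 4.58% of gate cells in Mono+MCTR3 mice and 0 to 1.99% in Mono mice, and Igll1 in 1.64 to 4.17% and 0 to 0.995%, so that the groups no longer overlapped for Igll1. The two-sided exact permutation p of this Igll1 share was 0.0286, or 0.324 after adjustment over 17 shares. Dntt followed the same mice, with 124, 18.4, 6.59 and 0 CPM in Mono+MCTR3 mice and 13.8, 0, 0 and 0 CPM in Mono mice. Rag1 did not, with 6.44, 11.7, 26.4 and 0 CPM in Mono+MCTR3 mice and 17.7, 0, 4.73 and 6.98 CPM in Mono mice, and was found in 3 mice of each group. The Dntt level of Mono+MCTR3 mouse 3 was 1 UMI in 1 cell. Of 23 gate UMIs of Siglech, a marker of plasmacytoid dendritic cells, 6 lay in that mouse and 15 in Mono mouse 1. Further, 1 early gate cell of each group lay in a cluster that holds genes of that cell type. At a gate of 5 UMIs Dntt was found in at most 0.515% of the gate cells of a Mono mouse, against 1.01% at the gate used. Whether Dntt in these 2 mice came from plasmacytoid dendritic cells was not tested.

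The later genes were found in every mouse. Vpreb3, which encodes a further Vpreb-family protein of immature B-cells, stood at 1377, 1395, 1457 and 1387 CPM in the gate cells of Mono+MCTR3 mice, against 1557, 1271, 1106 and 1449 CPM in Mono mice. Ebf1 stood at 2081, 2334, 2136 and 2121 CPM in Mono+MCTR3 mice, against 2297, 2327, 2274 and 2048 CPM in Mono mice. Ighm, the heavy chain of IgM, stood at 6788, 6200, 6171 and 7317 CPM in Mono+MCTR3 mice, against 6591, 8328, 8120 and 7613 CPM in Mono mice. For these 3 genes the ranges of the groups overlapped. Ighd, the heavy chain of IgD, stood at 517, 607, 475 and 377 CPM in Mono+MCTR3 mice, against 502, 314, 411 and 497 CPM in Mono mice. Fcer2a, which encodes CD23, stood at 253, 235, 297 and 157 CPM in Mono+MCTR3 mice, against 234, 257, 194 and 194 CPM in Mono mice. Cr2, the complement receptor CD21, stood at 40.3, 39.2, 46.1 and 12.6 CPM in Mono+MCTR3 mice, against 49.2, 47.6, 33.1 and 22.7 CPM in Mono mice. Cr2 rests on few UMIs, with 2 in Mono+MCTR3 mouse 4. Here too the groups overlapped, and the lowest Ighd, Fcer2a and Cr2 levels of the Mono+MCTR3 group were those of mouse 4. Its shares of gate cells with these genes (50.8, 23.7 and 3.39%) were the lowest of that group as well. Any link to the erythroid UMIs in the gate cells of mouse 4 was not tested.

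**Figure D1:**
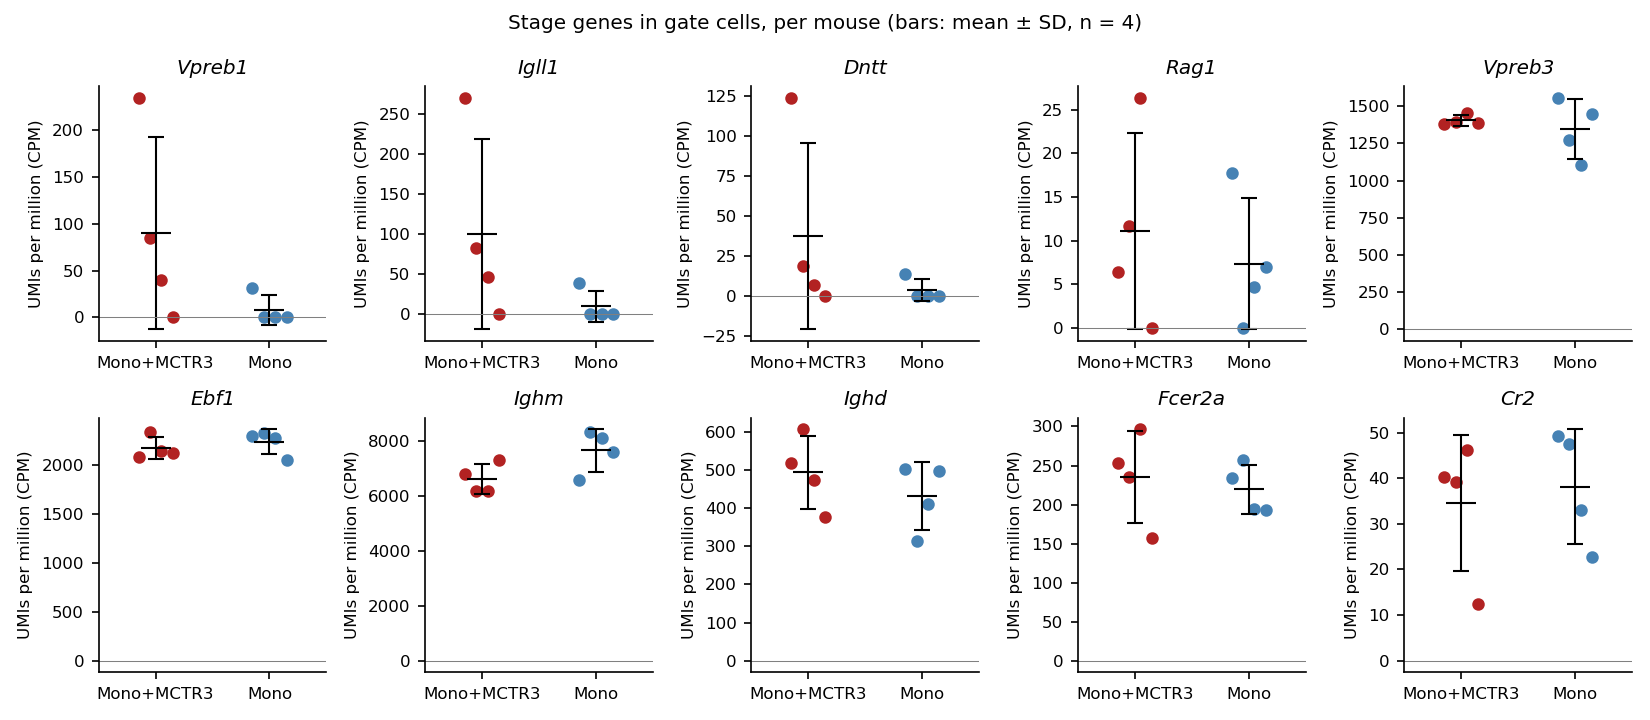
Level of each of the 10 member genes in gate cells, in CPM (linear axes that include 0, with a scale of their own for each gene), with 1 point per mouse and bars for the mean ± SD (n = 4), Mono+MCTR3 left and Mono right. Vpreb1, Igll1 and Dntt are at 0 in 3 of the 4 Mono mice and in Mono+MCTR3 mouse 4, while the points of the 2 groups overlap for the later genes.

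Members were grouped by the cells that held them. Of the 18 cells with Igll1, 17 also held Vpreb1, and of the 14 with Dntt, 11 held Vpreb1 and 11 held Igll1. Each of the 22 Vpreb1 cells, 18 Igll1 cells and 27 Rag1 cells held Vpreb3, Ebf1 and Ighm as well. Among all gate cells 69.0% held Vpreb3, 96.0% held Ebf1 and 99.8% held Ighm. Of the 14 Dntt cells, 12 held Vpreb3 and 12 held Ebf1. Rag1 shared few cells with the other early genes, as 4 of its 27 cells held Vpreb1, 3 held Igll1 and 2 held Dntt. No Rag1 cell held Ighd, Fcer2a or Cr2. Vpreb3 and Ighd met in 425 cells, which are 42.6% of the 997 Vpreb3 cells and 55.3% of the 769 Ighd cells. Both shares lay below those of all gate cells, of which 53.3% held Ighd and 69.0% held Vpreb3. Of the 117 Cr2 cells, 79 held Ighd (67.5%) and 60 held Fcer2a (51.3%), against 53.3% and 31.9% of all gate cells.

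The 10 members were then used to place each gate cell on a map of stages. A cell with any UMI of Vpreb1, Igll1, Dntt or Rag1 was called early (49 cells). Among the others, Vpreb3 without Ighd, Fcer2a or Cr2 made a cell immature (439 cells), Vpreb3 with at least 1 of them put it in an overlap stage (511 cells), and at least 1 of them without Vpreb3 made it mature (384 cells). The remaining 61 cells were unplaced. Ebf1 and Ighm set no stage. Median depth was 2519 UMIs in early, 2202 in immature, 2323 in overlap, 2231 in mature and 2271 in unplaced cells. Of all gate cells 30.4% were immature, 35.4% in the overlap stage and 26.6% mature. Overlap was more frequent than immature in 4 of 8 mice (Mono+MCTR3 mice 1 and 2 and Mono mice 1 and 4), and immature more frequent than overlap in the others. The overlap stage rests on joint detection and shrank with depth: after each cell was thinned to 1000 UMIs it averaged 18.1% per mouse in Mono+MCTR3 and 15.5% in Mono mice, against 32.5% and 31.3% before thinning, while immature cells averaged 35.3% and 41.4%, against 30.3% and 36.2%, and unplaced cells averaged 15.6% and 18.7%, against 3.76% and 5.37%. Thinning left out 0 to 180 cells per mouse that had fewer UMIs than that.

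Early cells were of unequal kinds. In 31 of the 49 a lone early gene was found, in 21 of these as a lone UMI, and 6 cells held 2, 10 held 3 and 2 held all 4 early genes. Cells with 1 early gene had 7442 CPM of Ighm and 7394 CPM of Igkc, the kappa light-chain constant gene. Cells with 3 early genes had 3017 CPM of Ighm and 431 CPM of Igkc. Cells with 2 early genes had 3422 CPM of Ighm and 1768 CPM of Igkc. In these pooled sums the cells with 3 early genes were low in kappa transcripts. They came from Mono+MCTR3 mice 1 (7 cells) and 2 (3 cells) alone, so their levels describe those cells only. Single-gene cells were closer to the immature stage, where Ighm stood at 9397 and Igkc at 18586 CPM. By cluster, 36 early cells lay in the B-cell-like cluster led by Iglc1 and Ms4a1, 10 lay in a monocyte-or-macrophage-like cluster led by F13a1, 2 in a cluster led by Acta1 and 1 in the B-cell-like cluster led by Ighd. Ms4a1 was found in 11 of the 49 early cells.

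The genes that set no stage differed along the map, over the summed UMIs of each stage. Ebf1 stood at 3418 CPM in early, 2926 in immature, 1955 in overlap and 1627 CPM in mature cells. Ighm stood at 5135 CPM in early, 9397 in immature, 6949 in overlap and 4171 CPM in mature cells. In these pooled sums Ebf1 was highest in early cells and Ighm in immature cells. Within the early stage Ebf1 stood at 4140, 1863, 3520 and 6213 CPM in cells with 1, 2, 3 and 4 early genes. Over mice, Ebf1 ranged from 2597 to 3317 CPM in immature, 1616 to 2149 in overlap and 1414 to 1757 CPM in mature cells, so that its last 2 stages overlapped. Ighm ranged from 7872 to 10746 CPM in immature, 6111 to 9233 in overlap and 3084 to 5359 CPM in mature cells, so that its immature and overlap stages overlapped. Early sums of at least 10 cells existed in Mono+MCTR3 mice 1 and 2 alone, where Ebf1 lay between 3282 and 3361 CPM. These values overlapped the range of immature cells over mice. In the same 2 mice immature cells stood at 2706 and 3299 CPM of Ebf1.

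Levels of members were also set out along Ighd UMIs, with gate cells of all stages pooled. Ighd, Vpreb3 and Fcer2a help to set the stages, so these bins recut the map and give it no separate support. Cells with 0, 1, 2, 3 and 4 or more Ighd UMIs numbered 675, 305, 173, 113 and 178. Vpreb3 stood at 2123, 1152, 525, 444 and 382 CPM along these bins, and Fcer2a at 125, 231, 389, 380 and 400 CPM. Ebf1 stood at 2642, 1982, 1828, 1731 and 1621 CPM, and Ighm at 8286, 6709, 5237, 4682 and 4308 CPM. Most of the difference lay between 0 and 2 Ighd UMIs. These are pooled levels given as a description, since bins share mice, and median depth was 2233 to 2320 UMIs in every bin.

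**Figure D2:**
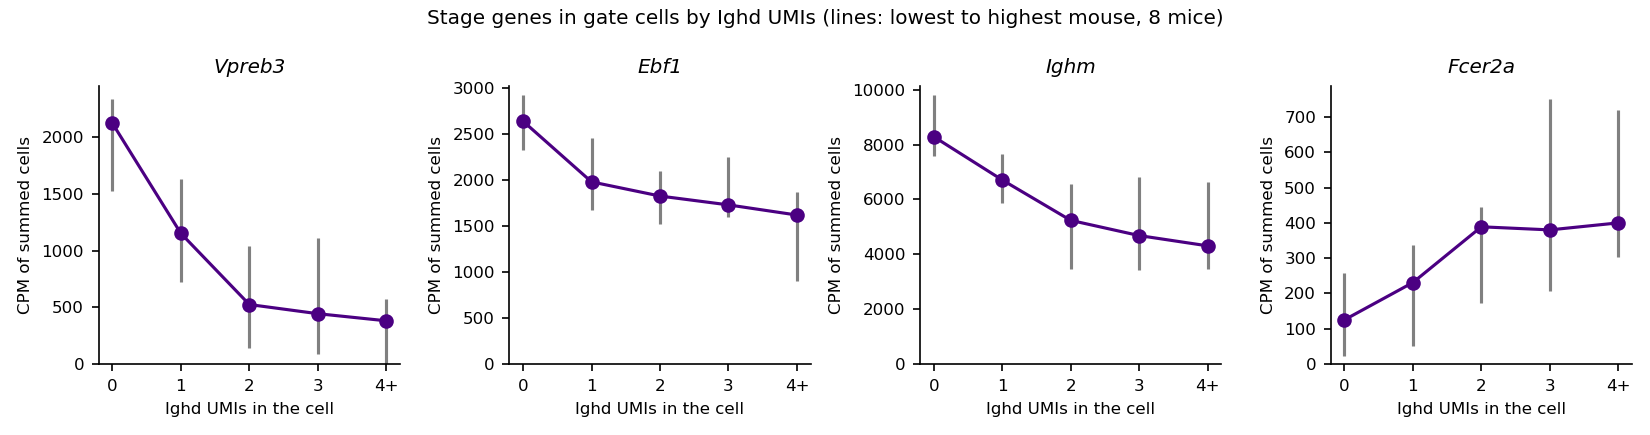
Levels of Vpreb3, Ebf1, Ighm and Fcer2a (CPM, linear axes from 0) in gate cells with 0, 1, 2, 3 and 4 or more Ighd UMIs. Points are sums over all gate cells of a bin and bars run from the lowest to the highest mouse. Vpreb3, Ebf1 and Ighm are lower and Fcer2a is higher in cells with more Ighd.

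To describe what accompanies the step from immature to mature, UMIs were summed per mouse and stage and compared within mice. The 2 members that set no stage were both lower in mature cells. Ebf1 stood at 1620, 1703, 1692 and 1652 CPM in mature cells of Mono+MCTR3 mice and 1620, 1757, 1440 and 1414 CPM in those of Mono mice, against 2706, 3299, 2738 and 2619 CPM and 2688, 3317, 3268 and 2597 CPM in the immature cells of the same mice. The stages did not overlap, and the log2 fold change of mature over immature was -0.72 ± 0.07 (SE, 8 of 8 mice, edgeR quasi-likelihood test, Benjamini-Hochberg adjusted p = 1.35e-07). Ighm averaged 4329 ± 740 CPM in mature and 9315 ± 1138 CPM in immature cells (SD, n = 8 mice), a log2 fold change of -0.999 ± 0.054 (SE) that was seen in 8 of 8 mice (edgeR adjusted p = 2.38e-10). Both were read against a wide background, since 520 of the 1218 other genes tested passed the threshold (42.7%), 263 higher (21.6%) and 257 lower (21.1%) in mature cells. The 3 gate genes, which chose the cells, were lower in mature cells too, with log2 fold changes that were not counted.

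The MHC class II genes, which present antigen to helper T-cells, rose together. All 8 tested of the 9 listed were higher in mature cells, with a list median of 1.74 on the log2 scale against -0.07 over all genes tested. H2-Eb1, a class II beta chain, averaged 4442 ± 550 CPM in mature and 854 ± 285 CPM in immature cells (SD, n = 8), a log2 fold change of 2.53 (edgeR adjusted p = 2.62e-12). H2-Aa changed by 2.52, H2-Ab1 by 2.11 and the invariant chain Cd74 by 0.95 (log2), each in 8 of 8 mice.

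Genes of B-cell homing and survival rose as well. Of the 8 tested of 12 listed, 7 were higher and 0 lower. Gpr183, an oxysterol receptor that guides B-cell movement, averaged 356 ± 110 CPM in mature and 54.5 ± 42.3 CPM in immature cells. The chemokine receptor Ccr7 changed by 1.51 and Ltb, a lymphotoxin chain, by 1.26 (log2).

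Genes of early development other than the members fell. Of 15 listed, 3 had enough UMIs to be tested, and Cd24a, Sox4 and Tifa were all lower in mature cells. Sox4, a transcription factor of B-cell progenitors, averaged 63.8 ± 90.2 CPM in mature and 503 ± 322 CPM in immature cells, lower in 8 of 8 mice although the stages overlapped between mice. Cd24a, the surface protein CD24, averaged 436 ± 127 CPM in mature and 1929 ± 255 CPM in immature cells. Cd93, a surface protein of young B-cells, and Il7r, the interleukin-7 receptor, had too few UMIs for the test. Over all gate cells Cd93 stood at 179, 70.0, 20.2 and 7.65 CPM and Il7r at 109, 32.3, 4.67 and 3.28 CPM in early, immature, overlap and mature cells.

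Transcription factors and receptor genes changed in both directions. Among 13 of 15 listed B-lineage transcription factors tested, Ets1 alone rose (log2 fold change 0.68) and Spib (-2.09), Tcf3 (-1.13), Foxo1 (-0.71) and Pou2af1 fell. With 5 of 13 called, against 42.7% of all genes tested, the list did not stand above the background. Tcf3 encodes the E2A proteins that act with EBF1. Among 15 tested of 18 B-cell receptor signalling and surface genes, 4 rose and 8 fell. Cd55, which limits complement on the cell surface, changed by 2.25 and Fcmr, a receptor for IgM, by 0.76, while the co-receptor Cd72 changed by -1.99 and Tnfrsf13c, the BAFF receptor, by -1.10 (log2).

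Genes of the light chain fell beside Ighm. The constant genes Iglc1, Iglc2, Iglc3 and Igkc were all lower in mature cells, the 4 tested of 10 listed. Iglc1 averaged 695 ± 465 CPM in mature and 4986 ± 2736 CPM in immature cells and did not overlap between stages, while Igkc differed little, at 14496 ± 2749 CPM in mature and 17865 ± 2231 CPM in immature cells (edgeR adjusted p = 0.0107, lower in 7 of 8 mice). The Iglc genes are close copies, so how their reads were divided is uncertain. Of 3 cell division genes tested, Hmgb2 (7 of 8 mice) and Tuba1b (-0.68, 6 of 8 mice, edgeR adjusted p = 0.0198) fell, and Tuba1b ran from -0.92 to -0.49 with each mouse left out. Mzb1, a chaperone of antibody-secreting cells and the plasma cell gene tested, passed at an adjusted p of 0.0474 with 6 of 8 mice, and turned to -0.0822 (log2) when cells were thinned to 1000 UMIs.

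The largest changes outside these lists included genes of varied roles. Higher in mature cells were Apoe, a lipid carrier (450 ± 243 against 19.6 ± 21.9 CPM), Gimap4, a lymphocyte GTPase (169 ± 51.8 against 13.1 ± 14.5 CPM), Ms4a4c, B4galnt1, Stap1, Shisa5 and Myc, the growth regulator (203 ± 64.4 against 26.8 ± 21.5 CPM). Hspa1a, a heat shock gene induced by stress, was also higher (2181 ± 1503 against 497 ± 684 CPM, 7 of 8 mice), with mature cells between 0 and 4198 CPM. Lower in mature cells were Atp1b1, Myl4, Dusp6, Chchd10, Pafah1b3 and Fam129c, which averaged 61.0 ± 21.0 CPM in mature and 530 ± 109 CPM in immature cells. The split between directions depended on scaling, since library totals in place of TMM factors gave 193 higher and 534 lower genes and put the median of all genes at -0.31, against -0.07 with TMM (log2). With cells thinned to 1000 UMIs 271 of 524 genes passed, 229 of the 520 genes were called again in the same direction, and 14 of the 305 that could be tested changed sign.

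**Figure D3:**
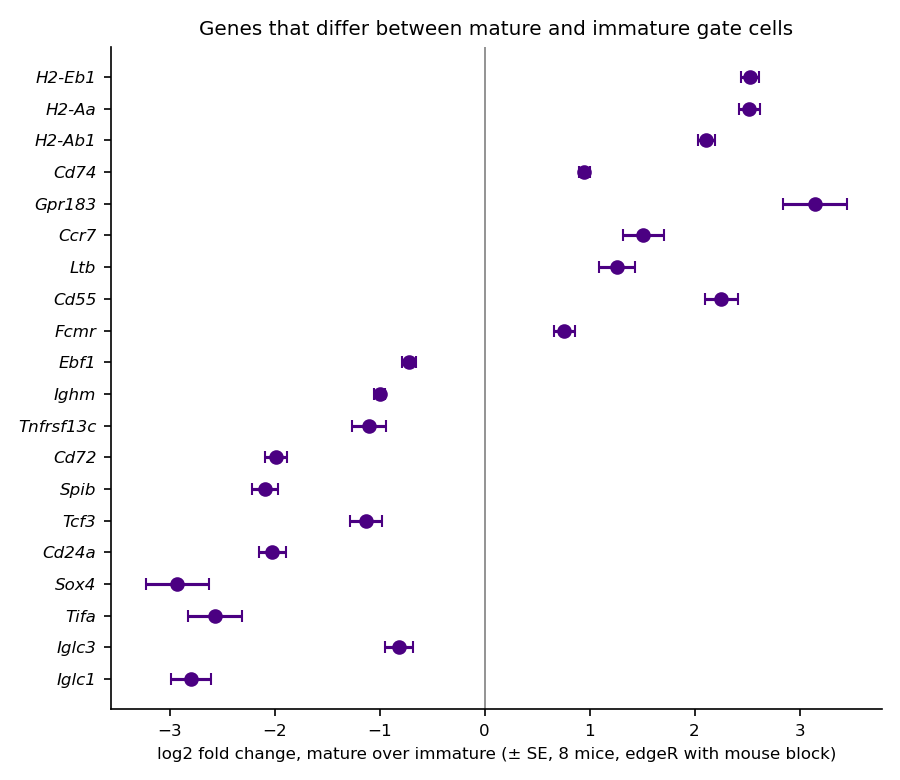
Log2 fold change of mature over immature gate cells for Ebf1, Ighm and genes of the listed groups (points, with bars of 1 SE, edgeR on sums per mouse and stage, n = 8 mice). MHC class II and homing genes lie right of 0, while Ebf1 (-0.72), Ighm (-0.999), Cd24a and Iglc1 lie left of it.

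The members were next compared between mice given MCTR3-treated and vehicle-treated monocytes. None of the 8 members that could be tested passed between groups in gate cells. Of 4093 genes tested over the gate, 0 passed (percent called 0), 246 had an unadjusted p under 0.05, and DESeq2 gave 0 and edgeR's likelihood ratio test 3. Vpreb1 and Igll1 had the highest fold changes of the members, 3.46 ± 0.78 (adjusted p = 0.326) and 3.27 ± 0.80 (adjusted p = 0.331) as log2 of Mono+MCTR3 over Mono (SE, edgeR quasi-likelihood test). Both were at 0 in 1 Mono+MCTR3 mouse and in 3 Mono mice. Vpreb3, Ebf1, Ighm, Ighd, Fcer2a and Cr2 had log2 fold changes of 0.09, -0.00, -0.17, 0.25, 0.16 and 0.08, with edgeR adjusted p of 0.898 to 0.999. Dntt and Rag1 had too few UMIs to be tested. The gate gene Ms4a1 stood at 1424 to 2228 CPM in Mono+MCTR3 and 2244 to 3006 CPM in Mono mice. Its groups did not overlap, yet it did not pass (log2 fold change -0.41, edgeR adjusted p = 0.809). With no filter on low counts Vpreb1 and Igll1 passed among 53 genes (edgeR adjusted p = 1.24e-29 and 2.45e-30). Each of these 2 genes had a value in 13 alternatives, against 18 for Vpreb3. The call was made in no other of those 13, and the remaining settings did not test them. Counts were also simulated with the gate's means and depths and a single dispersion for all genes. There a log2 change of 2 was recovered for 98.5% and a log2 change of 1 for 46.7% of the changed genes, so changes of the smaller size could be missed. These shares do not apply to genes as uneven between mice as Vpreb1 and Igll1, for which changes of 3.46 and 3.27 did not pass.

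Shares of cells were compared as well. Gate cells made up 17.7, 24.5, 5.86 and 7.78% of the cells of Mono+MCTR3 mice, against 17.2, 6.21, 8.15 and 17.1% of those of Mono mice, and the means of 13.97 ± 8.74% and 12.2 ± 5.81% (SD, n = 4 each) did not differ beyond this spread (two-sided exact permutation p = 0.743). Early cells numbered 13, 18, 5 and 0 in Mono+MCTR3 mice and 8, 0, 1 and 4 in Mono mice. They made up 4.45 ± 3.53% of gate cells in Mono+MCTR3 and 1.71 ± 1.71% in Mono mice (exact permutation p = 0.286, SD, n = 4 each). Immature cells made up 30.3 ± 6.19% in Mono+MCTR3 and 36.2 ± 4.91% in Mono mice (exact p = 0.2), and mature cells 28.9 ± 2.49% and 25.4 ± 3.92% (exact p = 0.257). The lowest p was that of cells with Ighd, which made up 57.0, 60.3, 52.5 and 50.8% of gate cells in Mono+MCTR3 mice, against 49.5, 32.7, 42.7 and 52.2% in Mono mice (exact p = 0.0571, 0.648 after adjustment over 17 shares). The groups overlapped through Mono mouse 4 and Mono+MCTR3 mouse 4. At a gate of 2 UMIs they did not overlap, with 50.8 to 58.0% in Mono+MCTR3 and 31.4 to 50.0% in Mono mice (exact p = 0.0286, 0.397 after adjustment), and with cells thinned to 1000 UMIs the exact p was 0.286. With 4 mice per group the smallest p that such a test allows is 0.0286, and a lone share at that p would stand at 0.486 after adjustment over 17 shares, so that no single share could pass. When cells were thinned to 1000 UMIs, Fcer2a cells made up 20.1 ± 1.28% in Mono+MCTR3 and 16.0 ± 1.31% in Mono mice (exact p = 0.0286, 0.486 after adjustment), while without thinning they made up 31.9 ± 5.72% and 27.8 ± 5.13% (exact p = 0.314).

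**Figure D4:**
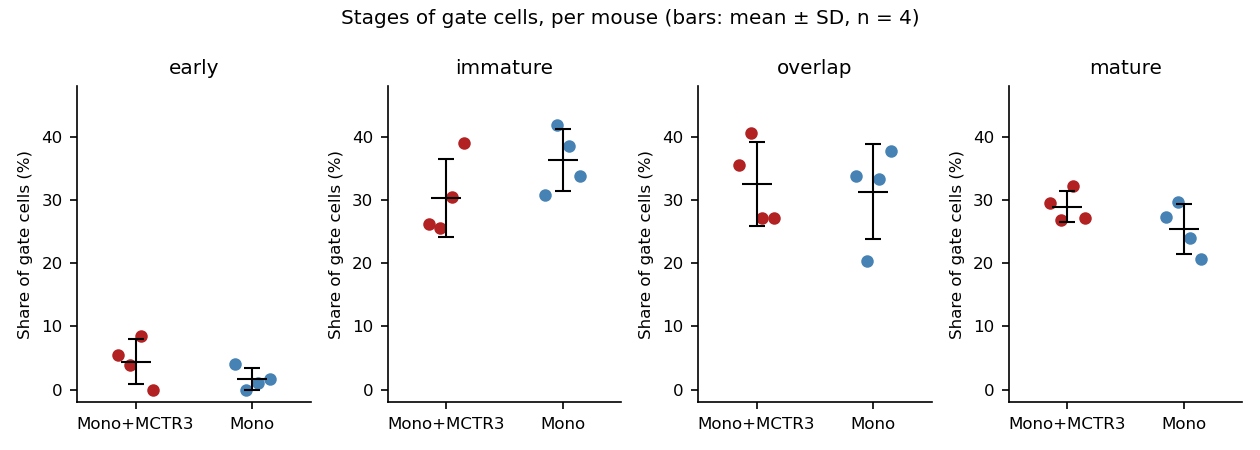
Share of gate cells (%) in the early, immature, overlap and mature stages, with 1 point per mouse and bars for the mean ± SD (n = 4), Mono+MCTR3 left and Mono right. The groups overlap in each of the 4 stages, and no early cell was kept in Mono+MCTR3 mouse 4 and Mono mouse 2.

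The step from immature to mature was also compared between groups. The difference between the groups' mature over immature changes was 0.13 ± 0.14 (log2, SE) for Ebf1 and -0.10 ± 0.11 for Ighm, both with an edgeR adjusted p of 1. Of 1226 genes 0 passed this interaction test (percent called 0), and 53 had an unadjusted p under 0.05.

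Outside the gate most members were found in few cells, with shares that varied between mice. Vpreb3 was found in 1.18, 2.91, 0.105 and 0% of the cells outside the gate in Mono+MCTR3 mice, against 1.47, 0.203, 0.647 and 1.99% in Mono mice. In T-cell-like cells, which should lack them (760 cells, median 3566 UMIs, against 2250 UMIs in the gate cells of the B-cell-like clusters), Vpreb3 was found in 1.45%, Vpreb1 in 0.526%, Igll1 in 0.263%, Ighd in 1.58% and Fcer2a and Cr2 in 0.132% each. In gate cells the shares were 69.0% for Vpreb3, 1.52% for Vpreb1, 1.25% for Igll1, 53.3% for Ighd, 31.9% for Fcer2a and 8.10% for Cr2. Dntt was found in 0.970% of gate cells, against 0.395% of T-cell-like cells. The shares of Vpreb1, Igll1 and Dntt were low in both kinds of cell, but the 22 gate cells with Vpreb1 held 270 UMIs of it, against 4 UMIs in the 4 T-cell-like cells with Vpreb1. Rag1 was found in 0 of 760 T-cell-like cells, which allows a share of up to 0.395%. Intervals and limits of this kind cover counting error alone.

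Ighm was the exception, with UMIs in 2337 of the 8812 cells outside the gate (26.5%). It was found in 53.6% of T-cell-like and 21.0% of neutrophil-like cells, at 285 and 104 CPM, against 99.8% of gate cells. Its ratio to Igkc differed between the classes. There were 0.425 Ighm UMIs per Igkc UMI in gate cells (0.396 to 0.543 over mice), 4.90 in T-cell-like, 3.36 in NK-like and 2.03 in neutrophil-like cells. The ratio outside the gate was 3.16 (1.68 to 10.1 over mice), above that of gate cells in all 8 mice. The source of these Ighm UMIs was not tested. Ighm outside the gate did not pass between groups (log2 fold change 0.10, edgeR adjusted p = 0.953).

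Dntt outside the gate lay almost wholly in a cluster that holds plasmacytoid dendritic cell genes. Of its 103 UMIs there, 96 (93.2%) came from 29 of the 75 non-gate cells of an unnamed cluster led by the muscle gene Acta1. These 29 cells held Bst2 in 29, Cox6a2 in 27, Siglech in 26, Ccr9 in 25, Klk1 in 16 and Pacsin1 in 15, the listed markers of that cell type, and Acta1 in 0. They held Ighm in 29 and Igkc in 6, and neither Vpreb1 nor Igll1. Of the 29, 18 came from Mono+MCTR3 and 11 from Mono mice. The 46 cells of the cluster without Dntt held Siglech in 22 and Acta1 in 4. Between groups, Dntt outside the gate had a log2 fold change of 1.58 (edgeR adjusted p = 0.871).

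Ebf1 outside the gate came from different cells in different mice. Of its 229 UMIs in 89 cells, 129 (56.3%) lay in 20 stroma or fibroblast-like cells led by Dcn and Col3a1, each of which held Ebf1, at 1072 CPM. The other 100 UMIs were spread over 69 cells (0.785% of the cells outside the gate and that cluster). Fibroblast-like cells numbered 0, 0, 2 and 0 in Mono+MCTR3 mice and 1, 8, 2 and 7 in Mono mice. They held 0, 0, 7 and 0 Ebf1 UMIs in Mono+MCTR3 mice, where other cells outside the gate held 20, 34, 4 and 1. In Mono mice they held 6, 38, 18 and 60 Ebf1 UMIs, where other cells held 13, 8, 5 and 15. Most of the UMIs thus lay in fibroblast-like cells in Mono mice 2, 3 and 4 and in Mono+MCTR3 mouse 3, and in other cells in the remaining mice. Ebf1 outside the gate stood at 6.93, 7.07, 5.33 and 0.636 CPM in Mono+MCTR3 mice, against 7.19, 14.5, 9.62 and 23.0 CPM in Mono mice, and the groups did not overlap. The log2 fold change was -1.15 ± 0.44 (SE, edgeR adjusted p = 0.871), where 0 of 8241 genes passed (percent called 0), 448 had an unadjusted p under 0.05, DESeq2 gave 2 and edgeR's likelihood ratio test 9. How many of these 8241 genes had groups that did not overlap was not counted. Without the fibroblast-like cluster Ebf1 stood at 6.93, 7.07, 1.95 and 0.636 CPM in Mono+MCTR3 mice, against 4.93, 2.56, 2.10 and 4.67 CPM in Mono mice, so that the groups overlapped and the log2 fold change turned to 0.57. How many fibroblasts pass a CD45+ sort is set by the sort as well as by the tissue, and these cannot be told apart.

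A last source of Ebf1 lay inside the gate but outside the B-cell-like clusters. The monocyte-or-macrophage-like clusters led by F13a1 and Ear2 (383 cells) held 358 Ebf1 UMIs, of which 354 (98.9%) came from 24 gate cells in the F13a1-led cluster, 17 from Mono+MCTR3 and 7 from Mono mice. These 24 cells held B-lineage genes. They had Cd79b in 24, Cd79a and Vpreb3 in 23, Pax5 in 13, Ms4a1 in 0 and Ighm in 24, and 10 of them were early cells. They held C1qa, C1qb, C1qc, Adgre1, Ms4a7 and Ace in 0, Csf1r and Fn1 in 1, F13a1 in 2 and Ly6c2 in 6. The division gene Mki67 was found in 22, median depth was 6823 UMIs, close to the 6897 of the cluster, and 0 were called doublets.

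These few cells held nearly all Ebf1 UMIs of the macrophage clusters. Mono+MCTR3 mice had 36, 106, 11 and 7 cells in both clusters, of which 3, 11, 2 and 1 were gate cells, and Mono mice had 46, 34, 56 and 87 cells, of which 2, 1, 0 and 4 were gate cells. Over both clusters Ebf1 stood at 283, 249, 336 and 354 CPM in Mono+MCTR3 mice, against 70.5, 49.0, 0 and 63.4 CPM in Mono mice, and the groups did not overlap. The Ebf1 level of Mono+MCTR3 mouse 4 rests on 20 UMIs of 1 gate cell. How many other genes had groups that did not overlap in these clusters was not counted. In a comparison added after seeing the data, Ebf1 was among 17 of 3219 genes that passed (0.528%), of which 11 were higher (0.342%) and 6 lower (0.186%) in Mono+MCTR3 mice, with a log2 fold change of 2.55 ± 0.46 (SE, edgeR adjusted p = 0.0364). Other genes that passed included the division genes Top2a (1.99), Ube2c (2.04) and Stmn1 (1.40) and the cytokine Osm (1.54) as higher, and Hspa1b (-2.64), Fcgr4 (-2.20), Sirpb1c (-1.30), Clec4a3 (-1.20) and Sat1 (-0.96) as lower. Vpreb3 (1.88, adjusted p = 0.124), Ighm (1.18, adjusted p = 0.0731) and Cd79a (2.01, adjusted p = 0.0731) did not pass (edgeR, log2 fold changes). With the 24 gate cells left out Ebf1 stood at 4.48, 1.59, 0 and 0 CPM in Mono+MCTR3 mice, against 0, 0, 0 and 3.79 CPM in Mono mice, too few UMIs to be tested, and 0 of 3068 genes passed (217 at an unadjusted p under 0.05). The Ebf1 call with gate cells was also lost on leaving out Mono+MCTR3 mouse 1, 2 or 4 or Mono mouse 2 or 4 (edgeR adjusted p up to 0.104).

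**Figure D5:**
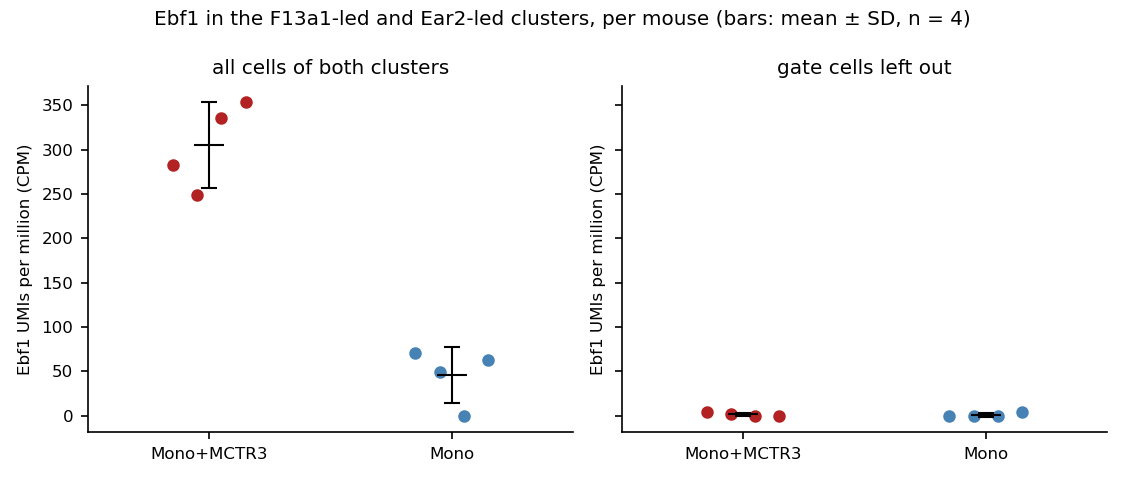
Ebf1 level (CPM, linear axis) in the F13a1-led and Ear2-led clusters, with 1 point per mouse and bars for the mean ± SD (n = 4), Mono+MCTR3 left and Mono right. With every cell of both clusters (left panel) Mono+MCTR3 mice lie between 249 and 354 CPM and Mono mice between 0 and 70.5 CPM, while without the 24 gate cells (right panel) no mouse exceeds 4.48 CPM.

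Across the 15 clusters, the genes whose summed levels were most like those of a member were of varied kinds. Pearson's r of log2(CPM + 10) was 0.987 between Ighd and Fcer2a, itself a member, 0.977 between Ighd and Cxcr5, the follicle-homing receptor, and 0.963 between Ighd and Fcmr. Vpreb3 was most like Gm30211 (0.953), Cd79a (0.945) and Il4i1 (0.931), and Ighm was most like Btla (0.935), Chchd10 (0.928) and Pmf1 (0.926). Ebf1 was most like Cnn3 (0.941), which encodes an actin-binding protein, the lipid desaturase gene Scd1 (0.928) and Gga2 (0.905). The clusters share libraries and differ in size and depth, so these values describe the clusters and carry no test.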

How the data were processed

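Leukocytes (CD45+) of paw joints from 4 Mono+MCTR3 and 4 Mono mice were sequenced with the 10x 3' kit, 4000 cells being loaded per mouse. The authors made UMI counts per gene and barcode with Cell Ranger (STAR, GRCm38) and deposited 1 count table per group. They aggregated samples within each group, which evens out depth within a group but not between groups. Barcode suffixes (1 to 4) were taken as mice. They could not be tied to the individual labelled animals, and whether same-numbered mice share a batch is not given, so no mouse of one group was paired with a mouse of the other.

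The 10 members, the gene lists and the stage rule were chosen with earlier results of these data known. Barcodes outside 250 to 3000 genes, under 500 UMIs or over 5% mitochondrial UMIs were removed, and the rest was clustered with Seurat 5.3.0 (scale factor 1000, 2000 variable genes, 20 components, resolution 0.5). Clusters were named from listed markers, so differences from the study's own classes may come from these rebuilt names. Scrublet marked 52 cells (0.507%) as doublets, which were kept and removed in an alternative. UMIs summed per mouse were tested with edgeR 4.0.16 (quasi-likelihood F test, TMM, filterByExpr, R 4.3.3), with Benjamini-Hochberg adjustment over all genes tested and a threshold of 0.05. Stages were compared within mice with the mouse as a block, using sums of at least 10 cells. Members and gate genes were left out of the counts of that comparison. Shares were compared by two-sided exact permutation tests (SciPy 1.17.1). Each mouse is 1 library, so its biological and technical spread are not separated. The script was tested on simulated data.

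The text names the 10 members, the 10 genes with the largest change in each direction between stages, up to 4 passing genes of each list by smallest p, up to 5 passing genes in each direction between groups, and, for Vpreb3, Ebf1, Ighm and Ighd, the 3 genes with the highest Pearson correlation over clusters among genes with at least 200 UMIs. Some genes that this rule names are not reported here. Further genes named as markers, or as measured beside these, were chosen after their values were seen. Alternatives covered the test, scaling, filters, gate, thinning, doublets and each mouse left out. Immature against early cells was not compared, since 2 mice had 10 early cells and 3 were required.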

Additional observations from a re-analysis of the deposited data

Results flagged for a closer look

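Among 68 sets of 4 mice examined, 10 had a mouse far from the other 3. In most of these the other 3 mice had the same value, 0 or 100%, and the rule always flags such a set. The CPM and the share of the same gene were also examined as separate sets. The number flagged can therefore not be set against chance. In gate cells Mono mouse 1 stood at 31.5 CPM of Vpreb1, 39.4 CPM of Igll1 and 13.8 CPM of Dntt, with the other Mono mice at 0. The same mouse had Vpreb1 in 1.52%, Igll1 in 0.505% and Dntt in 1.01% of its gate cells, with the other Mono mice at 0%. Dntt stood at 124 CPM in Mono+MCTR3 mouse 1, against 0 to 18.4 CPM in the other Mono+MCTR3 mice. Ighm was found in 99.2% of the gate cells of Mono+MCTR3 mouse 1 and 99.6% of those of Mono mouse 4, against 100% in the other mice of each group. The erythroid genes summed to 69383 CPM in the gate cells of Mono+MCTR3 mouse 4.

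The filter on cells took away much of the early signal. In all, 40 barcodes with more than 3000 genes, 26 from Mono+MCTR3 and 14 from Mono mice, were not used, and 12 of them met the B-cell gate and 8 the early rule (7 from Mono+MCTR3 and 1 from Mono mice). They held 235 Vpreb1 UMIs (42.9% of all Vpreb1 UMIs in the tables, 201 in Mono+MCTR3 and 34 in Mono mice), 222 Igll1 UMIs (40.7%, 189 and 33) and 191 Dntt UMIs (46.1%, 177 and 14). With these barcodes kept, Igll1 was found in 2.87 ± 1.11% of gate cells in Mono+MCTR3 and 0.249 ± 0.498% in Mono mice (SD, n = 4 each, two-sided exact permutation p = 0.0286, 0.324 after adjustment over 17 shares).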

How the results depend on the processing

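No member passed between groups in gate cells under the alternatives in which it could be tested, except Vpreb1 and Igll1 with no filter on low counts. For shares the adjusted threshold was out of reach of any single share. Counts of genes that passed in gate cells were 3 with edgeR's likelihood ratio test, 53 with no filter on low counts and 0 to 1 with each mouse left out. Outside the gate they were 9 with the likelihood ratio test, 9 with no filter, 2 with DESeq2 and 0 to 2 with each mouse left out. Between mature and immature cells 907 passed with no filter (520 lower), 271 when thinned to 1000 UMIs (122 higher, 149 lower, of 524 tested), 534 lower with library totals, and 418 to 575 with each mouse left out. Fitted with no replicate block for the mouse, 482 passed, 476 of them among the 520. Of the 520, 337 were called again in the same direction with DESeq2 (543 passed) and 414 with no filter. In the F13a1-led and Ear2-led clusters, alternatives added after seeing the data gave 0 without gate cells, 75 with DESeq2, and 0 to 25 with each mouse left out (0 without Mono+MCTR3 mouse 1 or Mono mouse 2).

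Directions that turned belonged to differences that were small or not called. The log2 fold change of Ebf1 in gate cells was 3.41e-05 with the likelihood ratio test, 0.0113 with up to 10% mitochondrial UMIs, 0.0338 at a gate of 2 UMIs, 0.0047 at a gate of 5 UMIs, 0.0289 without early cells, and -0.0536 to 0.0308 with each mouse left out. Outside the gate, Ebf1 turned to 0.57 without the fibroblast-like cluster, Ighm to -0.0450 with library totals (which put the median of all genes at -0.16), and Vpreb3 ran from -0.83 to 0.74 with each mouse left out. Cr2 in gate cells turned to -0.0173 with DESeq2, and Mzb1 between stages to -0.0822 when thinned. Differences of shares, Mono+MCTR3 minus Mono in percentage points, turned to 0.114 for Ebf1 outside the gate when thinned, and for Ighm in gate cells to 1.33 at a gate of 2 UMIs, 0.0033 at a gate of 5 UMIs and 0.026 with no upper limit on genes. With each mouse left out they ran from -1.71 to 4.51 for gate cells, -0.538 to 0.0604 for Ebf1 outside the gate, -2.42 to 3.35 for the overlap stage, -0.127 to 1.57 for Rag1, -0.211 to 0.110 for Ighm and -1.43 to 0.809 for Cr2. In all, 1182 values kept direction and side of the threshold, 17 became called or higher in count, 35 became uncalled or lower in count and 30 turned. The cause of these shifts was not tested, apart from the fewer genes tested after thinning and the cells left out.

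Stages rest on 1 or more UMIs at a median of 2202 to 2519 UMIs per cell, so a gene not found in a cell cannot be called absent from it. No paired analysis of Mono+MCTR3 with Mono mice was possible because the labels give no numbers that pair them. The comparison of immature with early cells, and its alternatives, were not run because fewer than 3 mice had enough early cells.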
